A study of Mus musculus with 36 samples.

Results

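Endoplasmic reticulum stress genes were followed in tibial bone of wild-type and progeria mice. The 10 genes were *Hspa5*, *Hsp90b1*, *Pdia4*, *Sdf2l1*, *Dnajb9*, *Herpud1*, *Xbp1*, *Atf4*, *Ddit3* and *Trib3*, taken by symbol from the 56246 genes of the expression table. They are known parts of the unfolded protein response, and the rule that picks them uses their symbols alone. The list was nevertheless drawn up with earlier results of these data known. *Ddit3* appears in 2 rows of the table, and the row with the higher mean was used. The libraries came from 12 wild-type mice (treatment given as NT), 12 *LMNA* G/G mice injected with saline and 12 *LMNA* G/G mice injected with ABE, each with 6 males and 6 females aged 6 months. *LMNA* G/G mice are homozygous for a human bacterial artificial chromosome that holds *LMNA* with the classic progeria mutation and a further human gene, *RAB25*, on a C57BL/6J background, so both *LMNA* G/G groups share the transgene. ABE is an adenine base editor carried by a pair of AAV9 vectors, and saline or ABE was given by retro-orbital injection 14 days after birth. No group received the vectors without the editor, and the study describes the mice as littermates. No label names a litter or a batch, and the numbers in the wild-type mouse names run in a series of their own, so the labels do not show whether handling differed with genotype. In the *LMNA* G/G groups 3 mouse names hold the letters WT (F1WT609535 and M4WT109560 after ABE, M1WT509424 after saline). Their labels give the *LMNA* G/G genotype, and they were used as labelled.

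The endoplasmic reticulum (ER) folds the proteins that a cell secretes, and bone cells that lay down collagen depend on it heavily. When unfolded proteins build up there, 3 sensors in the ER membrane respond. IRE1 (*Ern1*) splices the mRNA of *Xbp1*, ATF6 (*Atf6*) is cut in the Golgi to release a transcription factor, and PERK (*Eif2ak3*) slows translation and so favours ATF4. ATF6 and spliced XBP1 raise chaperones and the machinery that removes misfolded proteins, while ATF4 raises amino acid genes, *Ddit3* (CHOP) and *Trib3*. Values per gene do not separate spliced from unspliced *Xbp1* and do not show the activity of any sensor.

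The regulatory letters that these arms are known to use were looked for in the 250 bases before the RefSeq start of each gene, on both strands (RefSeq sequence, GRCm38.p6). All 10 genes had a promoter in the table of 32851 promoters. The ER stress response element (ERSE: CCAAT, any 9 bases, then CCACG) was found in *Hspa5* and *Hsp90b1*, and in 0.113% of all promoters. ERSE-II (ATTGG, any base, then CCACG) was found in *Herpud1* and in 0.0304% of all promoters. *Herpud1* also held the letters that ATF4 dimers are known to bind (CARE, TGATGNAA), which 3.45% of all promoters hold. The letters TGACGTGG were in 0 of the 10 and in 0.563% of all. With at most 1 mismatch, ERSE was found in *Hspa5*, *Hsp90b1*, *Pdia4* and *Ddit3*, and in 1.32% of all promoters. Every ERSE and ERSE-II match overlaps a CCAAT box (CCAAT), which 33.8% of all promoters hold. The matched stretches are shown for the 3 genes with an exact ERSE or ERSE-II match. The means of *Hspa5* and *Hsp90b1* were highest after saline and that of *Herpud1* after ABE. Of the genes without such a match, *Pdia4*, *Sdf2l1* and *Trib3* were highest after saline, *Dnajb9*, *Atf4* and *Ddit3* after ABE, and *Xbp1* in wild-type mice. Whether the letters bear on the means was not tested. The stretches lie at chr2:34772020-34772048 (+ strand), chr10:86705513-86705676 (- strand) and chr8:94386297-94386407 (+ strand), and capitals mark ERSE in the first pair and, in order, CARE on the opposite strand and ERSE-II in the last.
Hspa5: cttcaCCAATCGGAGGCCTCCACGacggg
Hsp90b1: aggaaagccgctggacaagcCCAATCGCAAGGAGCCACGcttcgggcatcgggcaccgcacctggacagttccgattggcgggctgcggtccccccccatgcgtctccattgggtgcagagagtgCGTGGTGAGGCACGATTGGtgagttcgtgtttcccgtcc
Herpud1: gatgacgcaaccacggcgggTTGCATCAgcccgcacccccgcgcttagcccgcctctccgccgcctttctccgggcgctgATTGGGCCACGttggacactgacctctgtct
*Hsp90b1* holds the element on either strand. The *Hspa5* match spans positions -65 to -47 from the RefSeq start, inside the first exon of a longer GENCODE transcript, so only a short stretch is shown. A match is a run of letters and not a measured binding site. The letters were picked because ER stress genes are known to use them. Their shares over all promoters are therefore a description and test nothing about the 10 genes.

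Levels are given as scaled TPM, the deposited TPM divided by a factor per library that brings the median gene to a common level. The values were rescaled because the shortest genes, at or under a single base once a constant is taken off their length, held between 84.7% and 96.6% of a library's TPM. Libraries had between 48064068 and 116206662 reads on genes, and each tested gene had between 345 and 33362 reads per library. The factor was 0.93 to 1.56 for wild-type, 0.83 to 1.31 for saline and 0.22 to 1.31 for ABE libraries. A factor under 0.8 was found in 4 libraries of ABE-treated females, F109436 (0.22) and F1WT609535 (0.69) among them, and in 0 others. These 2 libraries stood at opposite ends of the ABE group. F109436 had the highest ABE value of 4 of the 10 genes and the lowest of 3, and F1WT609535 had the highest of 5 and the lowest of 2. Groups were compared with limma on log2(scaled TPM + 0.5), with sex as a covariate and p-values adjusted by Benjamini-Hochberg over all tested genes. Log2 fold changes on this scale understate the changes of low genes.

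**Figure D1:**
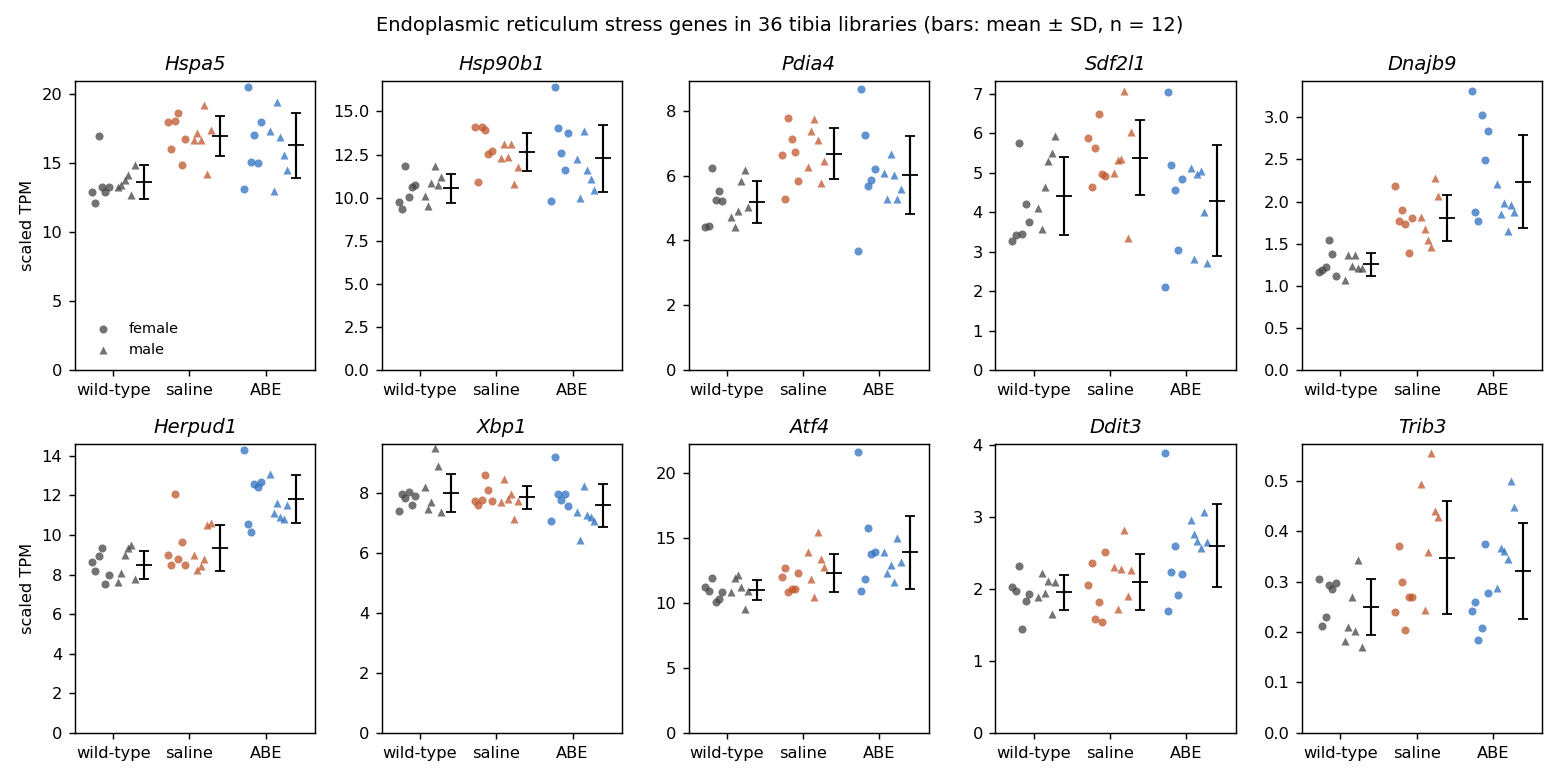
Scaled TPM (y axis, from 0) of the 10 genes in each of the 36 libraries, by group (x axis). Circles are females, triangles are males, and bars give the mean ± SD of 12 libraries. The chaperones *Hspa5*, *Hsp90b1* and *Pdia4* have their highest mean in saline-treated mice, and *Dnajb9*, *Herpud1*, *Atf4* and *Ddit3* have theirs in ABE-treated mice.

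*Hspa5*, *Hsp90b1* and *Pdia4*, chaperones of the ER lumen, were higher in saline-treated *LMNA* G/G bone than in wild-type bone, with means 24.4%, 19.9% and 28.9% above the wild-type mean. ABE-treated bone had means between those of the other groups for all 3 genes, and none of them passed the test between ABE and saline. *Hspa5* (ENSMUSG00000026864.13, chr2:34771970-34777547, + strand) encodes BiP, the ER Hsp70 that holds the stress sensors in check. Its scaled TPM ran from 12.2 to 16.9 (median 13.3) in wild-type, from 14.2 to 19.2 (median 17.0) in saline-treated and from 13.0 to 20.5 (median 16.2) in ABE-treated libraries. Every saline-treated library lay above the wild-type median and 6 of 12 lay above the highest wild-type library, while ABE-treated libraries overlapped both other groups. The log2 fold change of *Hspa5* was 0.30 ± 0.06 (SE, limma adjusted p = 0.000167) for saline against wild-type and 0.24 ± 0.06 (adjusted p = 0.00122) for ABE against wild-type. Between ABE and saline it was -0.07 ± 0.06 (adjusted p = 0.407). In bulk bone, fewer cells of a type and less RNA per cell cannot be told apart.

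*Hsp90b1* (ENSMUSG00000020048.13, chr10:86690209-86705509, - strand) encodes GRP94, the ER Hsp90. It ran from 9.37 to 11.9 (median 10.7) in wild-type, from 10.8 to 14.1 (median 12.6) in saline-treated and from 9.78 to 16.4 (median 11.9) in ABE-treated libraries. Of the saline-treated libraries, 9 of 12 were above the highest wild-type library. *Hsp90b1* rose by 0.25 ± 0.06 on the log2 scale in saline-treated mice (limma adjusted p = 0.00137) and by 0.20 ± 0.06 in ABE-treated mice (adjusted p = 0.00585). The latter was not called in males alone (0.10, adjusted p = 0.251) or after quantile normalization (0.13, adjusted p = 0.146).

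*Pdia4* (ENSMUSG00000025823.9, chr6:47796141-47813430, - strand) encodes a protein disulfide isomerase. Its scaled TPM ran from 4.40 to 6.24 (median 5.12) in wild-type, from 5.28 to 7.77 (median 6.69) in saline-treated and from 3.67 to 8.66 (median 5.95) in ABE-treated libraries. It rose in saline-treated mice by 0.34 ± 0.08 (limma adjusted p = 0.00123), and 9 of 12 libraries exceeded the highest wild-type one. In ABE-treated mice the log2 fold change was 0.19 ± 0.08 and stood at the threshold (adjusted p = 0.0506). The lowest ABE-treated value was that of F109436, and without that library the fold change was 0.24 (adjusted p = 0.00383).

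*Sdf2l1* (ENSMUSG00000022769.9, chr16:17130138-17132383, - strand) encodes an ER protein that keeps clients of BiP soluble. Its mean was 4.29 in ABE-treated, 4.41 in wild-type and 5.38 in saline-treated mice, while its ABE-treated median lay between those of the other groups. For ABE against wild-type its log2 fold change was -0.07 ± 0.14 (limma adjusted p = 0.666), and the sign turned without F109436. Values ran from 3.27 to 5.92 (median 4.16) in wild-type, from 3.34 to 7.07 (median 5.33) in saline-treated and from 2.10 to 7.05 (median 4.70) in ABE-treated libraries. The 3 groups overlapped widely, and 11 of 12 ABE-treated libraries were below the saline median. *Sdf2l1* had a log2 fold change of 0.27 ± 0.14 for saline against wild-type (limma adjusted p = 0.0981) and fell by 0.34 ± 0.14 from saline to ABE (adjusted p = 0.0413). This last call rests on few libraries, since without F109436 the fold change was -0.26 (adjusted p = 0.0961), and 10 of 21 alternative settings kept it.

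*Dnajb9* and *Herpud1* went further in ABE-treated than in saline-treated mice. *Dnajb9* (ENSMUSG00000014905.4, chr12:44205559-44210326, - strand) encodes ERdj4, a co-chaperone that restrains IRE1. It ran from 1.07 to 1.55 (median 1.22) in wild-type, from 1.39 to 2.28 (median 1.79) in saline-treated and from 1.65 to 3.32 (median 1.97) in ABE-treated libraries. The 12 ABE-treated libraries did not overlap the wild-type libraries, and 9 of 12 saline-treated libraries were above the highest wild-type one. The mean of *Dnajb9* exceeded the wild-type mean by 43.5% after saline and by 78.0% after ABE. Its log2 fold change was 0.39 ± 0.08 for saline against wild-type (limma adjusted p = 0.000112), 0.62 ± 0.08 for ABE against wild-type (adjusted p = 3.84e-08) and 0.23 ± 0.08 for ABE against saline (adjusted p = 0.0142). The 4 highest ABE-treated values of *Dnajb9* were those of females, and with females alone the ABE against saline fold change was 0.39 (adjusted p = 0.0307) where with males alone it was 0.08 (adjusted p = 0.495). With the library factor as a covariate it was 0.15 (adjusted p = 0.135).

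*Herpud1* (ENSMUSG00000031770.16, chr8:94386438-94395377, + strand) encodes a membrane adaptor of ER-associated degradation, which draws misfolded proteins out of the ER for the proteasome. Its scaled TPM ran from 7.55 to 9.51 (median 8.41) in wild-type, from 8.21 to 12.1 (median 8.89) in saline-treated and from 10.2 to 14.3 (median 11.6) in ABE-treated libraries. No ABE-treated library overlapped the wild-type range, and all 12 were above the saline median. *Herpud1* rose by 0.45 ± 0.06 for ABE against wild-type (limma adjusted p = 5.57e-08) and by 0.33 ± 0.06 against saline (adjusted p = 0.000299). Against wild-type, saline-treated mice had a log2 fold change of 0.12 ± 0.06 (adjusted p = 0.069). The rise over saline was called within females (0.35, adjusted p = 0.023) and within males (0.30, adjusted p = 0.0114).

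**Figure D2:**
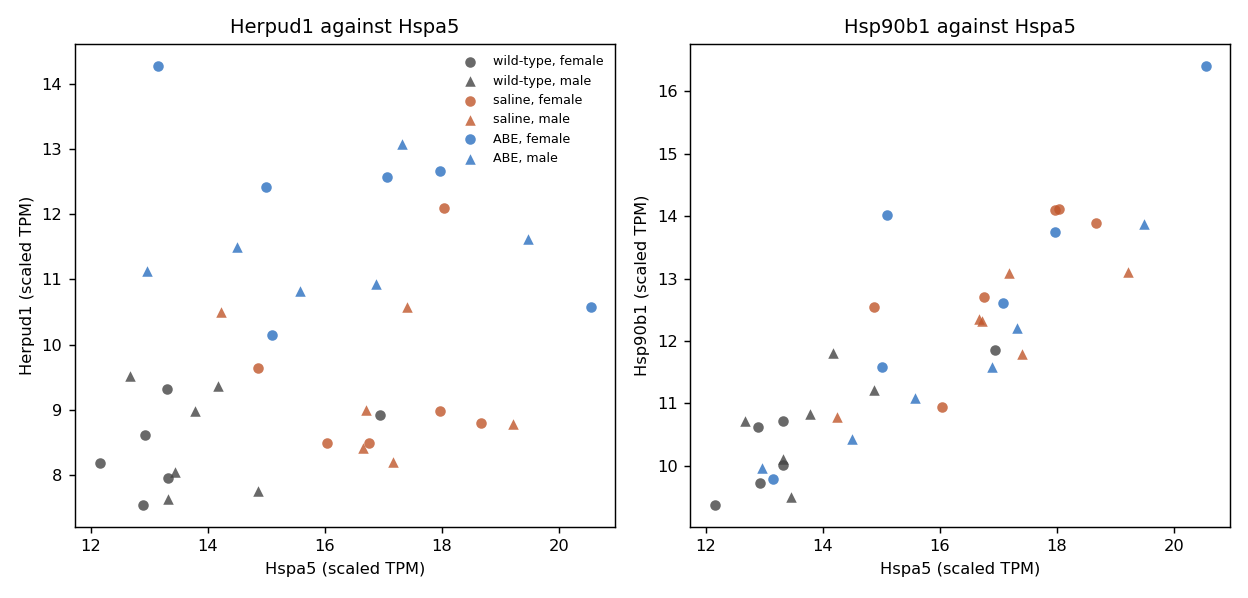
*Herpud1* (left) and *Hsp90b1* (right) on the y axis against *Hspa5* on the x axis, in scaled TPM, with 1 point per library. *Hsp90b1* follows *Hspa5* across the 3 groups. *Herpud1* lies between 10.2 and 14.3 in the ABE-treated libraries, at low and at high *Hspa5*.

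Of the transcription factors, *Atf4* and *Ddit3* rose in ABE-treated mice and *Xbp1* did not pass the test in any comparison. *Xbp1* (ENSMUSG00000020484.19, chr11:5520659-5525893, + strand), the target of IRE1, stayed within a narrow band. It ran from 7.37 to 9.49 (median 7.87) in wild-type, from 7.12 to 8.58 (median 7.75) in saline-treated and from 6.42 to 9.20 (median 7.48) in ABE-treated libraries. Its 3 log2 fold changes lay between -0.07 and -0.02, each with an SE of 0.04, and the lowest limma adjusted p was 0.134. In TPM as deposited *Xbp1* was called lower for ABE against wild-type, at -0.61 (adjusted p = 0.00051), or -0.18 relative to the median gene.

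*Atf4* (ENSMUSG00000042406.8, chr15:80255184-80257541, + strand), the effector of PERK, is controlled mostly at translation, which these values do not measure. Its mRNA ran from 9.56 to 12.2 (median 10.9) in wild-type, from 10.5 to 15.5 (median 12.2) in saline-treated and from 10.9 to 21.7 (median 13.5) in ABE-treated libraries, and 21.7 was the value of F109436. *Atf4* rose for ABE against wild-type by 0.31 ± 0.07 (limma adjusted p = 0.000507). The call ended with the library factor as a covariate (0.15, adjusted p = 0.077). The fold changes for saline against wild-type and ABE against saline were both 0.15 ± 0.07 (adjusted p = 0.0826 and 0.0889).

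*Ddit3* (ENSMUSG00000025408.15, chr10:127290774-127296288, + strand) encodes CHOP, a factor linked to cell death under lasting stress. It ran from 1.44 to 2.31 (median 1.96) in wild-type, from 1.54 to 2.82 (median 2.16) in saline-treated and from 1.70 to 3.90 (median 2.63) in ABE-treated libraries. Of the ABE-treated libraries, 8 of 12 were above the highest wild-type library and 3 of 12 above the highest saline-treated one, so the ABE and saline ranges overlapped. *Ddit3* rose by 0.32 ± 0.08 for ABE against wild-type (limma adjusted p = 0.00104) and by 0.25 ± 0.08 against saline (adjusted p = 0.0159). With the library factor as a covariate these were 0.21 (adjusted p = 0.0517) and 0.18 (adjusted p = 0.121). Between saline and wild-type its fold change was 0.07 ± 0.08 (adjusted p = 0.477).

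*Trib3* (ENSMUSG00000032715.9, chr2:152337422-152344032, - strand), a pseudokinase downstream of ATF4 and CHOP, was scarce. It had a mean of 0.32 TPM and between 85 and 369 reads per library, and it did not reach the minimum of 0.5 TPM for the test. Its scaled TPM ran from 0.17 to 0.34 (median 0.25) in wild-type, from 0.20 to 0.55 (median 0.33) in saline-treated and from 0.18 to 0.50 (median 0.32) in ABE-treated libraries. In the saline-treated group, the 4 highest values were those of males, and with no minimum the female minus male log2 difference of *Trib3* for saline against wild-type was -0.32 ± 0.10 (p = 0.00328, limma adjusted p = 0.125). With no minimum, *Trib3* had a log2 fold change of 0.17 ± 0.06 for saline against wild-type (limma adjusted p = 0.0259) and 0.13 ± 0.06 for ABE against wild-type (adjusted p = 0.0833). A count model on the reads (limma-voom), added after the data were seen, gave 0.47 ± 0.16 (adjusted p = 0.0124) and 0.36 ± 0.16 (adjusted p = 0.0447), and called 55.9% and 72.8% of its 22955 genes (46.5% for ABE against saline, where *Trib3* had -0.11, adjusted p = 0.592).

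**Figure D3:**
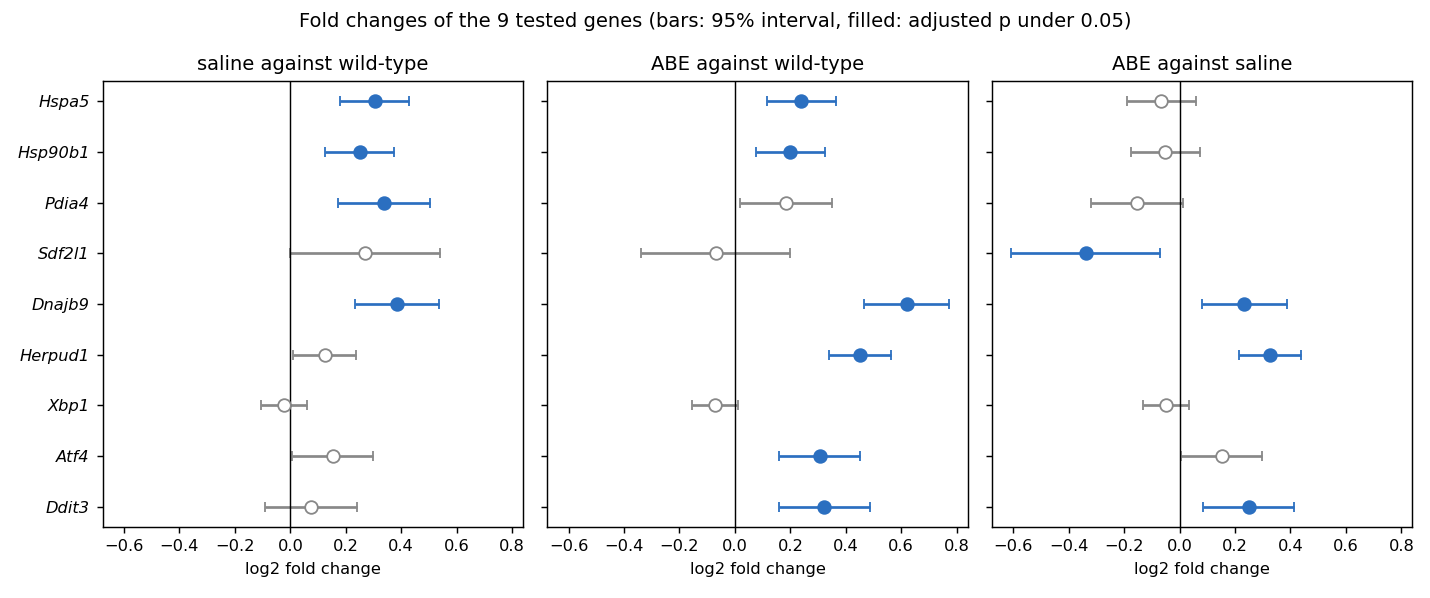
Log2 fold change (x axis) of the 9 tested genes (y axis) in the 3 comparisons. Bars give 95% intervals from the SE and filled points have a limma adjusted p under 0.05. Filled points lie above 0 in both comparisons with wild-type, and *Sdf2l1* alone is filled below 0, for ABE against saline.

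Of the 9 tested genes, 4 were called higher and 0 lower for saline against wild-type, where 52.4% of all 16123 tested genes were called (27.5% higher and 24.9% lower). The called genes were *Hspa5*, *Hsp90b1*, *Pdia4* and *Dnajb9*. For ABE against wild-type, 6 of 9 were called, all higher, against 70.1% of all genes (34.6% higher and 35.5% lower). Against saline, ABE-treated mice had 3 called higher (*Dnajb9*, *Herpud1* and *Ddit3*) and 1 lower (*Sdf2l1*), against 48.0% of all genes (22.9% higher and 25.1% lower). The share of the 9 genes that was called was near or under that of all genes in each comparison. The median log2 fold change of the 9 genes was 0.25, 0.24 and -0.05 in that order, and that of all tested genes was 0.02, -0.02 and -0.02. *Dnajb9* and *Herpud1* were the 2 genes whose ABE-treated and wild-type libraries did not overlap, as was so for 8.64% of all tested genes (4.09% higher and 4.55% lower). In the other comparisons 0 of 9 had groups without overlap, against 6.66% of all genes for saline against wild-type (3.01% higher and 3.65% lower) and 0.0310% for ABE against saline (0.0186% higher and 0.0124% lower). Any 2 of the comparisons share a group of libraries, so their values are not independent. Without the 3 libraries with WT in the mouse name, a fit added after the data were seen, 5, 6 and 4 genes were called in the same order, the gain being *Atf4* for saline against wild-type (0.17, limma adjusted p = 0.0479).

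These values depend on the scaling of the libraries. For saline against wild-type 0 of 9 genes were called in TPM as deposited, against 1038 higher and 3704 lower of all 16123 genes. In TPM as deposited, the median gene moved by -0.13 for saline against wild-type, -0.42 for ABE against wild-type and -0.27 for ABE against saline, and *Hspa5*, *Hsp90b1*, *Pdia4*, *Herpud1*, *Atf4* and *Ddit3* had negative fold changes for ABE against wild-type. Of all 16123 genes, 1470 were then called higher and 9458 lower in that comparison, where scaled TPM gave 5571 and 5728. Relative to that shift, *Herpud1* stood at 0.33, *Dnajb9* at 0.60, *Ddit3* at 0.29 and *Hspa5* at 0.11 for ABE against wild-type. For saline against wild-type, *Hspa5* stood at 0.25, *Hsp90b1* at 0.20 and *Pdia4* at 0.29 relative to the median gene. A ratio of 2 genes within a library does not depend on the scaling. *Herpud1* divided by *Hspa5* averaged 0.63 ± 0.07 (SD, n = 12) without treatment in wild-type mice, 0.55 ± 0.09 after saline and 0.74 ± 0.15 after ABE. *Xbp1* divided by *Hspa5* averaged 0.59 ± 0.07 in wild-type mice and 0.47 ± 0.04 after either injection. The ratio of *Hsp90b1* to *Hspa5* was 0.77 ± 0.05, 0.75 ± 0.05 and 0.75 ± 0.06 in that order.

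Whether the sexes differed was tested as an interaction of sex and group. Over 9 genes and 3 comparisons, 0 of 27 tests passed the limma adjusted threshold, and 2 had an unadjusted p under 0.05. The tests of all genes called 1.06%, 3.65% and 0.0558% in the same order of comparisons. The 2 were *Xbp1* for ABE against wild-type, with a female minus male log2 difference of 0.18 ± 0.08 (p = 0.0326, adjusted p = 0.198), and *Dnajb9* for ABE against saline, at 0.31 ± 0.15 (p = 0.042, adjusted p = 0.304). Limma-voom on the reads also called 0.

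Some of the genes varied together from mouse to mouse. Each library's deviation from the mean of its group and sex was taken, and Pearson's r was computed over the 36 libraries as a description. Among *Hspa5*, *Hsp90b1*, *Pdia4* and *Sdf2l1*, r lay between 0.64 and 0.89 over 6 pairs. *Xbp1* went with them, at 0.51 to 0.70, and at 0.36 to 0.60 without F109436 and F1WT609535. The other 4 genes did not form such a block. Among *Dnajb9*, *Herpud1*, *Atf4* and *Ddit3*, r ran from 0.02 for *Herpud1* and *Ddit3* to 0.80 for *Atf4* and *Ddit3*, with 0.62 for *Dnajb9* and *Herpud1*, and from -0.23 to 0.68 without F109436. The 16 pairs that join the 4 chaperones to *Dnajb9*, *Herpud1*, *Atf4* and *Ddit3* all had a negative r, the lowest being -0.74 for *Pdia4* and *Atf4*. The negative values rest in large part on 2 libraries. Without F109436, r was 0.56 to 0.85 among the 4 chaperones, 0.68 for *Atf4* and *Ddit3*, and -0.58 to 0.17 over the 16 pairs. Without F1WT609535 as well, over 34 libraries, r was 0.48 to 0.83 among the chaperones, 0.64 for *Atf4* and *Ddit3* and 0.54 for *Dnajb9* and *Herpud1*, while the 16 pairs ran from -0.49 to 0.32 and 8 of them were negative. The points share libraries and the scaling. Deviations of the library factor itself had an r of -0.51 with *Atf4* and 0.55 with *Pdia4*, and of 0.01 and 0.15 without F109436.

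**Figure D4:**
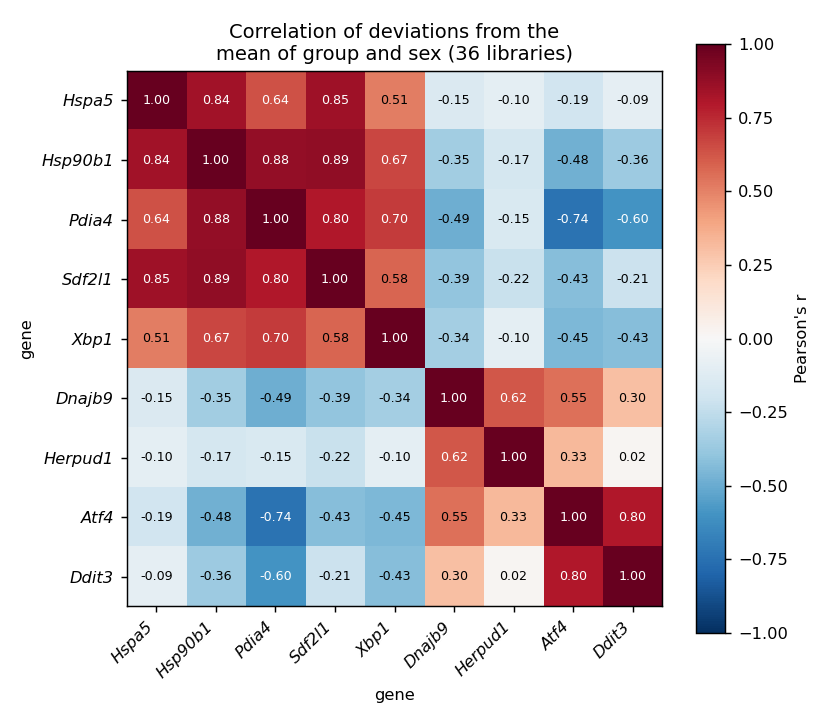
Pearson's r between the 9 tested genes (both axes), from deviations of log2 levels from the mean of group and sex over 36 libraries. The chaperones and *Xbp1* form a block of values from 0.51 to 0.89, and *Atf4* with *Ddit3* has 0.80.

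The genes most like *Hspa5* by the same measure were *Gtf2b* (0.89), *Pum3* (0.88), *Tax1bp1* (0.87), *Api5* (0.87) and *Rps19* (0.86). Among the tested members, *Sdf2l1* (0.85) had rank 15 and *Hsp90b1* (0.84) rank 23, while *Pdia4* (0.64) had rank 1788 and *Xbp1* (0.51) rank 3236. For *Ddit3* they were *Ppp2r5b* (0.90), *Tmem238* (0.87), *Dpf3* (0.86), *Optn* (0.86) and *Stk11* (0.85), and *Atf4* (0.80) had rank 28, *Dnajb9* (0.30) rank 4159 and *Herpud1* (0.02) rank 8245.

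The wider secretory pathway was described with lists of its known genes. Of the 3 sensors, *Ern1* and *Eif2ak3* were lower in both *LMNA* G/G groups than in wild-type mice. *Atf6* was slightly higher in scaled TPM, which depended on the scaling. *Ern1*, which encodes IRE1, averaged 2.71 ± 0.19 scaled TPM (SD, n = 12) in wild-type mice, 2.21 ± 0.15 after saline and 2.10 ± 0.22 after ABE. It fell by 0.24 ± 0.04 on the log2 scale in saline-treated (limma adjusted p = 7.58e-06) and by 0.31 ± 0.04 in ABE-treated mice (adjusted p = 7.72e-08). *Eif2ak3*, which encodes PERK, fell by 0.23 ± 0.05 (adjusted p = 0.000537) and by 0.30 ± 0.05 (adjusted p = 9.80e-06). With 4 marker lists as covariates *Ern1* was still called, at -0.28 in both, and *Eif2ak3* was not, at -0.05 and -0.06 (adjusted p = 0.536 and 0.49). *Atf6* had fold changes of 0.08 ± 0.03 in both (adjusted p = 0.00946 and 0.0078). In TPM as deposited these were -0.08 and -0.37, or 0.05 and 0.05 relative to the median gene. After quantile normalization *Atf6* was not called, at 0.04 and 0.05 (limma adjusted p = 0.224 and 0.117). With a common sum over all but the shortest genes it was -0.09 and -0.10, the latter called lower (adjusted p = 0.035). Relative to the median gene these were 0.05 and 0.09. From saline to ABE, the fold changes of *Ern1*, *Eif2ak3* and *Atf6* lay between -0.07 and 0.00, with a lowest limma adjusted p of 0.185. Over the 10 tested genes of sensors and relay, 5 were higher and 3 lower in either comparison with wild-type. For ABE against saline, 2 were higher and 0 lower. The numbers called were 8, 8 and 2 of 10, against 52.4%, 70.1% and 48.0% of all genes.

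The largest changes of that list were not in the 3 sensors, and their genes are named here after their values were seen. *Nfe2l1*, an ER-anchored factor that raises proteasome genes, rose by 0.68 ± 0.20 for saline against wild-type, by 1.39 ± 0.20 for ABE against wild-type and by 0.71 ± 0.20 for ABE against saline (limma adjusted p = 0.00583, 5.01e-07 and 0.00601). *Creb3l1* (OASIS), an ER-anchored factor of osteoblasts, rose by 0.70 ± 0.17 and 0.57 ± 0.17 against wild-type (adjusted p = 0.0009 and 0.00335). Its relative *Creb3l2* rose by 0.28 ± 0.07 and 0.40 ± 0.07 (adjusted p = 0.000657 and 2.99e-06), and *Atf6b* fell by 0.30 ± 0.06 and 0.39 ± 0.06 (adjusted p = 9.60e-05 and 9.32e-07). *Creb3* rose by 0.13 ± 0.05 for ABE against saline (adjusted p = 0.0317).

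Of 22 other ER chaperones and folding enzymes, 12 were higher and 2 lower for saline against wild-type, with a median log2 fold change of 0.11. The share called was 63.6%, against 52.4% of all genes. *Ppib*, a proline isomerase that acts on collagen, rose by 0.43 ± 0.08 (limma adjusted p = 3.80e-05), *Pdia3* by 0.37 ± 0.08 (adjusted p = 0.000289) and *P4hb*, a subunit of the collagen prolyl hydroxylase, by 0.36 ± 0.05 (adjusted p = 1.54e-06). For ABE against wild-type, 7 were higher and 4 lower, or 11 of 22 called against 70.1% of all genes. *Sdf2*, a relative of *Sdf2l1*, rose by 0.28 ± 0.06, *P4hb* by 0.27 ± 0.05 and *Dnajc3* (p58IPK) by 0.21 ± 0.03 (limma adjusted p = 6.68e-05, 5.35e-05 and 3.08e-07). From saline to ABE, 1 was higher and 8 were lower, or 40.9% against 48.0% of all genes, with *Ppib* at -0.28 ± 0.08, *Calr*, the lectin chaperone calreticulin, at -0.24 ± 0.08 and *Pdia3* at -0.24 ± 0.08 (limma adjusted p = 0.00535, 0.00998 and 0.015).

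ER-associated degradation, where *Herpud1* acts, had 17 tested genes. Against wild-type, 8 were higher and 5 lower for saline, and 10 higher and 6 lower for ABE. The shares called were 76.5% and 94.1%, against 52.4% and 70.1% of all genes. Single genes moved in either direction. *Syvn1*, the ubiquitin ligase HRD1 that works with *Herpud1*, fell by 0.54 ± 0.06 in saline-treated (limma adjusted p = 2.20e-08) and by 0.49 ± 0.06 in ABE-treated mice (adjusted p = 8.14e-08). *Edem1*, which marks misfolded glycoproteins, fell by 0.38 ± 0.10 and by 0.69 ± 0.10 (adjusted p = 0.0017 and 3.39e-07). *Selenok*, an ER membrane selenoprotein, rose by 0.40 ± 0.07 and 0.51 ± 0.07 (adjusted p = 1.14e-05 and 1.52e-07). From saline to ABE 1 was higher and 4 were lower (29.4% called, against 48.0% of all genes). Among the lower were *Edem1* (-0.31 ± 0.10, limma adjusted p = 0.0118), *Os9* (-0.25 ± 0.06, adjusted p = 0.00246) and *Edem2* (-0.20 ± 0.06, adjusted p = 0.0121).

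Of 28 tested targets of ATF4, for saline against wild-type 15 were higher and 0 lower, with a median log2 fold change of 0.21, and the 53.6% called was near the 52.4% of all genes. For ABE against wild-type, 15 were higher and 8 lower (82.1% called, against 70.1%). Between ABE and saline, 6 were higher and 11 lower (60.7% called, against 48.0%). *Ddit4*, an inhibitor of mTORC1, rose by 1.95 ± 0.18 and 1.88 ± 0.18 against wild-type in saline- and ABE-treated mice (limma adjusted p = 1.53e-10 and 2.34e-10). *Cebpb* rose by 1.15 ± 0.14 and 1.23 ± 0.14 (adjusted p = 3.76e-08 and 6.35e-09). *Vldlr*, a lipoprotein receptor, rose by 1.04 ± 0.18 and 1.45 ± 0.18 (adjusted p = 2.05e-05 and 4.47e-08). *Chac1*, which degrades glutathione, rose by 0.68 ± 0.25 and 1.41 ± 0.25 (adjusted p = 0.0201 and 6.79e-06) and, from saline to ABE, by 0.73 ± 0.25 (adjusted p = 0.0158). From saline to ABE, the amino acid transporter gene *Slc7a5* fell by 0.98 ± 0.20, *Ppp1r15a* (GADD34, which restores translation after PERK) fell by 0.93 ± 0.17, and *Asns*, asparagine synthetase, fell by 0.76 ± 0.16 (adjusted p = 0.000648, 0.000302 and 0.000856).

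Protein entry into the ER and glycan transfer had 17 of 24 genes higher and 1 lower for saline against wild-type, with a median of 0.24. Of its genes, 18 of 24 were called, against 52.4% of all genes. The highest among them were *Sec61g*, part of the translocon, at 0.66 ± 0.10, *Srp14*, of the signal recognition particle, at 0.57 ± 0.07, and *Spcs1*, of the signal peptidase, at 0.55 ± 0.07 (limma adjusted p = 1.03e-06, 2.43e-08 and 4.91e-08). For ABE against wild-type, 12 were higher and 3 lower (62.5% called, against 70.1% of all genes). *Sec11c*, of the signal peptidase, fell by 0.69 ± 0.09, *Srpr*, the receptor of the signal recognition particle, rose by 0.66 ± 0.11 and *Srp14* by 0.64 ± 0.07 (limma adjusted p = 8.91e-08, 3.70e-06 and 1.44e-09). From saline to ABE, 2 were higher and 13 lower, with a median of -0.11 and 62.5% called, against 48.0% of all genes. *Sec61g* fell by 0.36 ± 0.10 and *Sec61b* by 0.30 ± 0.08, and *Srpr* rose by 0.35 ± 0.11 (limma adjusted p = 0.00351, 0.00393 and 0.0102).

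ER to Golgi carriers had 16 of 18 genes higher in both comparisons with wild-type, with 1 lower in saline-treated and 2 lower in ABE-treated mice, or 94.4% and 100% called. Their median log2 fold changes were 0.27 and 0.31. Of all tested genes, 52.4% and 70.1% were called. *Sar1b*, a GTPase of large COPII carriers, rose by 0.84 ± 0.28 and 1.62 ± 0.28 (limma adjusted p = 0.013 and 6.99e-06), *Sec23a* by 0.45 ± 0.08 and 0.68 ± 0.08 (adjusted p = 2.67e-05 and 1.84e-08). The libraries spread widely for *Sar1b*, at 7.6 ± 2.8 scaled TPM (SD) in wild-type mice, 15.3 ± 8.4 after saline and 26.8 ± 14.8 after ABE. *Kdelr3*, which returns ER proteins from the Golgi, rose by 0.42 ± 0.15 and 0.33 ± 0.15 (limma adjusted p = 0.0164 and 0.0435). From saline to ABE 5 were higher and 2 lower (38.9% called, against 48.0% of all genes). *Sar1b* stood at 0.78 ± 0.28 and *Sec23a* at 0.23 ± 0.08 (limma adjusted p = 0.0238 and 0.0223). *Mia3* (TANGO1), which loads collagen into carriers, rose by 0.48 ± 0.07 for ABE against wild-type and by 0.25 ± 0.07 against saline (adjusted p = 4.44e-07 and 0.00513).

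The numbers of genes higher and lower in these lists follow the scaling. In TPM as deposited, ABE against wild-type gave 0 higher and 15 lower among other chaperones, 0 and 12 in degradation, 7 and 16 among ATF4 targets, 0 and 14 in entry and glycan transfer, and 1 and 4 among carriers. For saline against wild-type the numbers were 0 and 2, 0 and 3, 6 and 0, 3 and 1, and 0 and 0 in the same order. Over all 16123 tested genes, TPM as deposited gave 1470 higher and 9458 lower for ABE, and 1038 and 3704 for saline, against wild-type. When libraries were brought to a common sum over all but the shortest genes, saline against wild-type gave 1 higher and 7 lower among other chaperones, 1 and 8 in degradation, 8 and 5 among ATF4 targets, 6 and 6 in entry, and 2 and 1 among carriers. Over all 16123 genes, that rescaling gave 1875 higher and 6825 lower in the same comparison. In scaled TPM, list medians for saline and for ABE against wild-type were 0.11 and 0.03 for other chaperones. They were 0.21 and 0.15 for ATF4 targets, 0.24 and 0.11 for entry, and 0.27 and 0.31 for carriers. The median gene stood at 0.02 and -0.02. Under TPM as deposited, medians relative to the median gene were 0.08 and -0.06 for other chaperones and 0.18 and 0.09 for ATF4 targets. They were 0.20 and 0.01 for entry, and 0.23 and 0.23 for carriers. For ABE, the median of other chaperones changed sign and that of entry came near 0.

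The numbers also differed with marker lists of cell types as covariates, and so did those of all 16123 tested genes. Over all genes, the 4 lists left 392 higher and 301 lower for ABE against saline, where the main fit gave 3689 and 4049. They left 1289 and 1596 for ABE, and 1667 and 1728 for saline, against wild-type. The muscle list alone left 767 and 356, 2860 and 2441, and 3891 and 3431 in that order. With the muscle, neutrophil, B cell and erythroid lists in the fit, ABE against saline gave 0 higher and 0 lower among sensors and relay, other chaperones, degradation, entry and carriers, and 0 and 3 among ATF4 targets. With the muscle list alone it gave 0 and 0 among sensors and relay, degradation, entry and carriers, 1 and 0 among other chaperones, and 0 and 4 among ATF4 targets. For ABE against wild-type, the 4 lists left 0 higher and 1 lower among sensors and relay, 4 and 0 among other chaperones, 3 and 1 in degradation, 4 and 0 among ATF4 targets, 5 and 1 in entry, and 1 and 0 among carriers. For saline against wild-type they left 0 and 1, 9 and 1, 3 and 2, 7 and 0, 11 and 0, and 2 and 0 in the same order. The muscle list alone gave 1 and 1, 8 and 1, 4 and 3, 7 and 1, 14 and 1, and 11 and 0 for ABE, and 4 and 3, 13 and 2, 7 and 4, 14 and 1, 16 and 1, and 12 and 0 for saline, against wild-type.

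**Figure D5:**
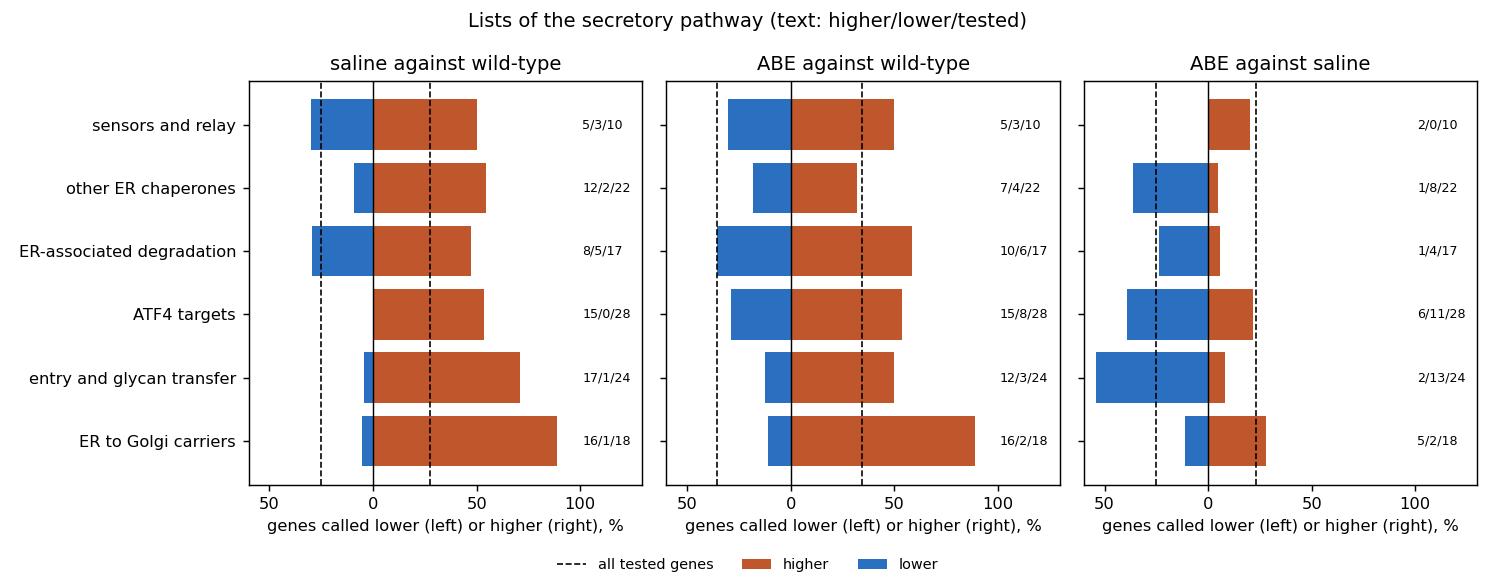
Share of tested genes called higher (right of 0) or lower (left of 0), in percent, for 6 lists of the secretory pathway in the 3 comparisons. Dashed lines give the same shares over all 16123 tested genes, and the text at the right gives genes higher, lower and tested. ER to Golgi carriers reach 16 of 18 higher in both comparisons with wild-type in scaled TPM.

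Markers of other tissues and cells moved with the groups. The summed scaled TPM of 12 skeletal muscle genes ran from 211 to 3138 (median 1040.5) in wild-type, from 328 to 7916 (median 2175) in saline-treated and from 1124 to 13443 (median 6448) in ABE-treated libraries. Between ABE and saline, 11 of 12 muscle genes were higher, and their most abundant gene, *Acta1*, rose by 1.22 ± 0.45 (limma adjusted p = 0.0257). Of all tested genes, 22.9% were higher and 25.1% lower there. In the same comparison 8 of 9 neutrophil genes, 5 of 6 erythroid genes and 6 of 7 osteoclast genes were lower, and the most abundant of these, *S100a9*, *Slc4a1* and *Ctsk*, had fold changes of -0.82 ± 0.28 (adjusted p = 0.0169), -1.16 ± 0.27 (adjusted p = 0.00148) and -0.78 ± 0.23 (adjusted p = 0.00631). The neutrophil sum had medians of 1469.6, 2515 and 1555 and the erythroid sum medians of 219.4, 249 and 115 in wild-type, saline- and ABE-treated mice. The osteoclast sum had medians of 145, 402 and 213 in the same order. With the muscle list as a covariate, *Herpud1* alone of the 9 genes was called between ABE and saline. Of all 16123 tested genes, 767 were then higher and 356 lower. With covariates for muscle, neutrophil, B cell and erythroid lists, 0 of 9 were called there, against 392 higher and 301 lower of all genes. In that fit *Herpud1* had a log2 fold change of 0.15 (limma adjusted p = 0.129) and *Ddit3* one of 0.26 (adjusted p = 0.127). The muscle list alone ended the calls of *Atf4* (0.10, adjusted p = 0.432) and *Ddit3* (0.18, adjusted p = 0.243) for ABE against wild-type. In that comparison and for saline, the 4 covariates ended the calls of *Dnajb9* (0.21 and 0.14, limma adjusted p = 0.189 and 0.412). *Hspa5*, *Hsp90b1* and *Pdia4* in saline-treated mice were still called with them.

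Cells that secrete heavily carry much of the ER machinery, so their markers are given too. Osteocyte genes summed to 10.7 to 50.3 in wild-type, 174 to 499 in saline-treated and 177 to 353 in ABE-treated libraries, and 5 of 5 tested genes were higher in both *LMNA* G/G groups. The 3 libraries with WT in the mouse name are among those behind the *LMNA* G/G ranges of this sum, and they lie above every wild-type library. *Sost*, an osteocyte gene, rose by 3.97 ± 0.23 in saline-treated mice (limma adjusted p = 1.51e-14). Osteoblast genes had medians of 1451, 1492 and 1449.8, and *Col1a1*, the most abundant, had a fold change of -0.34 ± 0.26 for saline against wild-type (adjusted p = 0.269). Plasma cell genes summed without *Xbp1* had medians of 199.5, 376 and 252. Of the 8 tested genes of that list, *Xbp1* included, 3 were called in saline-treated mice, all higher. That was 37.5%, against 52.4% of all genes. *Igkc* rose by 0.92 ± 0.30 (limma adjusted p = 0.012). Of 8 B cell genes, 7 were lower after saline and 8 after ABE, against wild-type (*Cd79b*, -0.82 ± 0.19 and -0.69 ± 0.19). Of all tested genes, 27.5% were higher and 24.9% lower after saline, and 34.6% and 35.5% after ABE. Cartilage genes summed to 98.3 to 269 in wild-type, 18.7 to 61.7 in saline-treated and 29.9 to 93.7 in ABE-treated libraries, led by *Prg4*. Adipocyte genes, led by *Cfd*, had medians of 52.0, 56.1 and 19.0. No gene of these lists was at 0 in all libraries. No covariate was fitted for osteocytes, osteoclasts, cartilage, plasma cells or adipocytes. The muscle, neutrophil, B cell and erythroid lists used as covariates differ between the groups themselves, so a call that ends does not measure their part. The part of any cell type in the values of the 10 genes was not tested.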

How the data were processed

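RNA of 36 tibiae, with epiphyses and marrow removed, was extracted with TRIzol and sequenced by the authors as poly(A) stranded libraries, aligned to GRCm38 with STAR and counted on GENCODE genes with QoRTs. The authors deposited TPM for 56246 genes, and how TPM were calculated is not given in the sources used here. Within each library 100% of values were, within 0.001, whole reads divided by gene length less a constant, so reads could be recovered for depth and for limma-voom. TPM were divided by median ratio factors taken over 23632 genes above 0 in every library. Genes averaging 0.5 TPM or more (16123) were fitted in 1 limma model on log2(scaled TPM + 0.5) with sex as a covariate, and called at a Benjamini-Hochberg adjusted p under 0.05. The sex difference was an interaction in a model of group and sex. No 2 libraries held identical values. The fit was first tested on simulated data with known fold changes.

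The members and lists were chosen with earlier results of these data known. All 10 members were described, with the sensors *Ern1*, *Eif2ak3* and *Atf6*, from each other pathway list up to 3 genes per comparison with the largest fold change among those called and averaging 2 TPM or more in some group, the 5 genes most like *Hspa5* and *Ddit3*, and the most abundant gene of each marker list. Alternatives were other scalings, pseudocounts of 0.1 and 1, no filter or one at 5 TPM, limma-voom, marker covariates, no sex covariate, either sex alone, pairs of groups, array weights and leaving out F109436. Added after the data were seen were the library factor as a covariate, limma-voom down to 10 reads, and leaving out either the 4 ABE-treated libraries with a factor under 0.8 or the 3 *LMNA* G/G libraries with WT in the mouse name. Nothing in the labels gives litters, so p-values measure the spread between mice. Gene coordinates are those of GENCODE vM21. The work used R 4.3.3, limma 3.58.1, Python 3.11.15, pandas 2.3.3, numpy 2.4.6 and matplotlib 3.10.9.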

Additional observations from a re-analysis of the deposited data

How the results depend on the processing

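Numbers of called genes are out of 9. Against wild-type, saline-treated mice had 4 called. TPM as deposited gave 0 and TPM rescaled to a common sum over all but the shortest genes gave 2 (*Dnajb9* higher and *Xbp1* lower), and the count stayed within 1.5 times under the other alternatives run. For ABE against wild-type, with 6 called, TPM as deposited gave 2, both lower, and no other alternative moved the count by more. For ABE against saline, with 4 called, the count was 1 with a filter at 5 TPM (6 genes tested), 0 with 4 marker lists as covariates, 1 with the muscle list, 2 in females alone and 2 in males alone, 1 with the library factor as a covariate and 2 without the 4 ABE-treated libraries of low factor. TPM as deposited gave 4, all lower, and the sum over all but the shortest genes gave 4, all higher, where the scaled values gave 3 higher and 1 lower. Over all 16123 genes these 2 settings gave 531 higher and 6574 lower, and 3436 and 3413. The 4 marker lists gave 392 and 301 over all genes, and the muscle list 767 and 356. For the sexes, 4 marker lists as covariates gave 2 calls and the muscle list 1. No paired analysis was possible because the labels number no replicates: each mouse name occurs in a single group, and the replicate numbers used here follow accession order and pair nothing.

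Directions turned in 36 of the values of single genes, most of them fold changes near 0. In TPM as deposited, saline against wild-type turned for *Herpud1* (-0.0610), *Atf4* (-0.0355) and *Ddit3* (-0.0872), ABE against wild-type for *Hspa5* (-0.32), *Hsp90b1* (-0.35), *Pdia4* (-0.32), *Herpud1* (-0.0997), *Atf4* (-0.253) and *Ddit3* (-0.138), and ABE against saline for *Dnajb9* (-0.0661), *Herpud1* (-0.0387), *Atf4* (-0.217) and *Ddit3* (-0.0508). Rescaling to that sum, which moved the median gene by -0.14, -0.19 and -0.03, turned *Herpud1* (-0.0739), *Atf4* (-0.0482) and *Ddit3* (-0.0959) for saline, and *Hsp90b1* (-0.0137) and *Pdia4* (-0.0168) for ABE, against wild-type. The 4 marker covariates turned *Atf4* (-0.0293) and *Ddit3* (-0.0679) for saline and *Sdf2l1* (0.20) for ABE against wild-type, and *Hspa5* (0.0954), *Hsp90b1* (0.0651) and *Xbp1* (0.00068) for ABE against saline. The muscle covariate turned *Xbp1* (0.0262) for saline, *Sdf2l1* (0.365) and *Xbp1* (0.0296) for ABE against wild-type, and *Hspa5* (0.0175), *Hsp90b1* (0.0586) and *Xbp1* (0.0034) for ABE against saline. In females alone *Xbp1* (0.0195 for saline and 0.0193 for ABE) and *Sdf2l1* (0.0939 for ABE) turned against wild-type. *Sdf2l1* for ABE against wild-type was 0.0048 without F109436 and 0.15 with the library factor as a covariate, which put *Hsp90b1* at 0.0011 between ABE and saline. Where fewer genes or samples entered the fit, its own construction differs, and for the rest the cause was not tested. Of the other values of single genes, 478 kept direction and side of the threshold, 43 lost the call and 34 gained one.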
